A study of Mus musculus with 3 samples.

Results

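Cytosolic ribosomal protein genes encode the proteins of the ribosome that translates nuclear-encoded mRNAs. The members were all features whose symbol begins with Rpl or Rps followed by a digit, together with Rplp0, Rplp1, Rplp2 and Rpsa. The 10 Rps6k kinase symbols and 5 symbols with a pseudogene suffix were left out. The rule took 86 of 32285 features, of which 52 carry a large subunit (Rpl) symbol and 34 a small subunit (Rps) symbol. Among them, 77 are standard subunits and 9 are paralogues or unusual symbols: Rpl22l1, Rpl36al, Rpl7l1, Rpl10l, Rpl39l, Rpl3l, Rps27l, Rps27rt and Rps19bp1. Rps19bp1 is named for binding Rps19 and is not itself a subunit.

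Ribosomal proteins are made in matched amounts, since each ribosome holds most of them once, and their short mRNAs are among the most abundant in a cell. Most of these mRNAs begin with a C and a run of C and T (U in the RNA), the terminal oligopyrimidine or TOP motif. Through it the kinase complex mTORC1 and the RNA-binding protein LARP1 set how strongly the mRNAs are translated and how long they are kept. In the liver, hepatocytes use this supply to make plasma proteins in bulk.

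The libraries were 10x Genomics 3′ single-cell RNA libraries of collagenase-dissociated liver from male C57BL/6 mice aged 9 weeks. All 3 genotypes lacked Ifih1 (Ifih1-/-), which encodes the RNA sensor MDA5, and all carried Alb-Cre, a recombinase driven by the albumin promoter, which is active in hepatocytes. They differed in Adar1, the gene of an enzyme that turns adenosine into inosine in double-stranded RNA: they were labelled wt/wt, wt/flox or flox/flox. The series asks what loss of Adar1 does where Ifih1 is absent. Each genotype had 1 library, so no difference has a replicate check and no p-value is given. The 95% intervals below cover counting error only, over unique molecular identifiers (UMIs), each of which tags 1 captured transcript. How many animals went into a library is not stated in the labels.

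Each library held 10000 barcodes with 9744380 to 10756790 UMIs, and 9772 to 9920 barcodes passed the filters. Pairs of libraries shared 20 to 32 barcode sequences. Hepatocyte-like clusters, which held hepatocyte markers and led with no other class's genes, gave 7967 barcodes of wt/wt, 7055 of wt/flox and 6936 of flox/flox. Hepatocyte markers were common in every cluster, so in effect the lack of other classes' genes set this class. The libraries stood apart within that class: cluster 0 drew 4517 of its 5304 barcodes from wt/wt, cluster 3 drew 4038 of 4718 from wt/flox, and cluster 8 drew 3016 of 3433 from flox/flox. The Adar gene (chr3:89715022-89753446, GRCm38) had 78, 119 and 256 UMIs there, or 10.4, 17.4 and 36.4 counts per 1000000 UMIs (CPM). It was thus highest in the library labelled flox/flox, although 3′ tags outside a deleted part do not check the deletion. Every direction below rests on these labels.

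The first bases of the transcripts are shown here for 12 members that recur in the results, because TOP motifs sit there. Each line gives the 10 bases before and the 20 bases from the RefSeq transcription start (build GRCm38.p6), 5′ to 3′ on the gene's strand, with the longest run of C and T in capitals.
Rpl7a, chr2:26910797-26910826, plus strand: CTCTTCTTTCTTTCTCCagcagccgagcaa
Rpl38, chr11:114668570-114668599, plus strand: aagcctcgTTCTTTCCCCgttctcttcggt
Rps15a, chr7:118116128-118116157, minus strand: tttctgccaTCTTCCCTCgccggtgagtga
Rps9, chr7:3704031-3704060, plus strand: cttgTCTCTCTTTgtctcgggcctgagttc
Rps12, chr10:23787190-23787219, minus strand: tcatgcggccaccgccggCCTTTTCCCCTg
Rps27, chr3:90213629-90213658, minus strand: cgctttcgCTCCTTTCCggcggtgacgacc
Rps27rt, chr9:114982720-114982749, minus strand: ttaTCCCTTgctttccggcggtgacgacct
Rpl22l1, chr3:28805498-28805527, plus strand: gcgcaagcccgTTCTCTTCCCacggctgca
Rps3a1, chr3:86142649-86142678, minus strand: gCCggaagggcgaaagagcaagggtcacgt
Rps3, chr7:99483690-99483719, minus strand: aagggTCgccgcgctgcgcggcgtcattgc
Rpl24, chr16:55966265-55966294, plus strand: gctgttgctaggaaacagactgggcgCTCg
Rpl41, chr10:128549149-128549178, minus strand: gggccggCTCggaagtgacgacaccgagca

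Promoter entries were found for 66 of the 86 members. A run of at least 8 C or T lay within 20 bases of the start in 30 of these 66 members (45.5%) and in 18.4% of all 27025 genes in the table. The letters CTTTC lay within 50 bases of the start, on the gene's strand, in 34 of the 66 members (51.5%) and 14.6% of all genes. On the other strand the same letters were found in 9 members (13.6%) and 13.8% of all genes. CCGGAAG, on either strand of the 300-base window, was found in 26 members (39.4%) and 9.93% of all genes. The matches of CTTTC and CCGGAAG can overlap by at most 1 letter. TATAAA in the 50 bases before the start, on either strand, was found in 1 member, Rpl22l1, and in 4.17% of all genes. The annotated starts of Rps3a1, Rps3, Rpl24 and Rpl41 show no long run at the printed window, which says nothing about the starts used in these livers.

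The 250 bases before the start of Rps3a1 and of Rpl22l1 are shown because these members stood at the low and the high end of the library differences. Matches of CCGGAAG and TATAAA on either strand are in capitals, and those of TATAAA on the 2 strands overlap.
Rps3a1, chr3:86142669-86142918, minus strand: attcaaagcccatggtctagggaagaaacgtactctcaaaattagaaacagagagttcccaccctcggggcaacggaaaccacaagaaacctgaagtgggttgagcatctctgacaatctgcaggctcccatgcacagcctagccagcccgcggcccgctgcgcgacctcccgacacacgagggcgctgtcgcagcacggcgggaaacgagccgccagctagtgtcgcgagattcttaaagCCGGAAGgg
Rpl22l1, chr3:28805258-28805507, plus strand: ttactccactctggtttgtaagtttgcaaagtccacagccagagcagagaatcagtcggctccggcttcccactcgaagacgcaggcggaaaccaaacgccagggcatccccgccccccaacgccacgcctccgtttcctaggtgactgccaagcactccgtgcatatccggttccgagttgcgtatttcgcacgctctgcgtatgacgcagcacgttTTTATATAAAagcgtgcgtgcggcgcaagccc

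In hepatocyte-like barcodes the members together took a smaller share of the UMIs in the flox/flox library than in the other two. Their share of all UMIs was 9.68% (interval 9.66 to 9.70), 9.21% (9.19 to 9.23) and 7.74% (7.72 to 7.76) across wt/wt, wt/flox and flox/flox, over 7507940, 6857505 and 7029103 UMIs. On the log2 scale flox/flox was lower than wt/wt by a ratio of -0.32 (-0.33 to -0.32) and lower than wt/flox by -0.25 (-0.26 to -0.25). The wt/flox library was below wt/wt by a smaller ratio of -0.071 (-0.076 to -0.067). The difference from wt/flox shrank to -0.15 in barcodes with at most 10% mitochondrial UMIs and to -0.12 in those with at least 2000 UMIs, where wt/flox was below wt/wt by -0.23. Fewer transcripts of these genes and more of all others cannot be told apart in a share.

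The distribution over barcodes lay lower in flox/flox at its median and quartiles, but not throughout its upper tail. In the bin that starts at 15%, for example, lay 0.602% (wt/wt), 0.170% (wt/flox) and 0.476% (flox/flox) of the barcodes. The median hepatocyte-like barcode gave 9.93% (wt/wt), 9.40% (wt/flox) or 7.56% (flox/flox) of its UMIs to the members. The range from the 25th to the 75th percentile ran from 8.0 to 11.4% (wt/wt), 7.79 to 10.7% (wt/flox) and 5.68 to 9.34% (flox/flox), so the libraries overlapped.

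**Figure D1:**
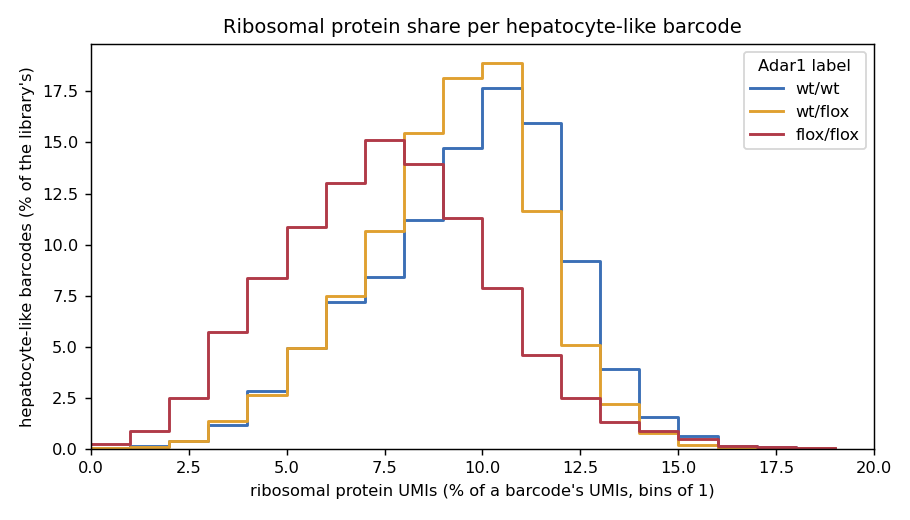
Share of each hepatocyte-like barcode's UMIs that fell on the 86 members (x axis, percent, bins of 1 percentage point) against the percent of that library's hepatocyte-like barcodes (y axis), 1 line per library. The flox/flox line peaks at lower shares than the wt/wt and wt/flox lines, with medians of 7.56, 9.93 and 9.40%.

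Other measures of the barcodes also differed between libraries, not all in the order of the share. In hepatocyte-like barcodes mitochondrial UMIs took 6.59, 5.58 and 8.85% across wt/wt, wt/flox and flox/flox, Malat1 and Neat1, which are nuclear RNAs, took 0.656, 0.748 and 0.922%, and the 12 hepatocyte markers took 9.17, 8.47 and 7.46%. The member share was lower at each higher stratum of mitochondrial RNA, in each library. In barcodes with under 3% mitochondrial UMIs it was 11, 10.1 and 9.71% across wt/wt, wt/flox and flox/flox. In those with 12 to 40% it was 7.16, 6.58 and 5.62%. Within all 4 mitochondrial strata the order wt/wt, wt/flox, flox/flox held.

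Depth and nuclear RNA were treated the same way. In 4 depth strata flox/flox was lowest throughout, from 7.54% against 9.99 and 9.51% at 500 to under 800 UMIs to 10.3% against 13.1 and 11.2% at 2000 UMIs or more. In 4 strata of Malat1 and Neat1 flox/flox was again lowest, at 8.67% against 10.5 and 9.95% where neither RNA was seen. At 2% or more of these RNAs it was 4.29% against 6.08 and 6.06%. At 0.5 to 2% wt/flox (8.0%) stood above wt/wt (7.31%). Flox/flox was thus lowest in every stratum of each measure. The strata were wide, so the libraries were not matched within them. The part of these measures in the difference, alone or jointly, was not tested.

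**Figure D2:**
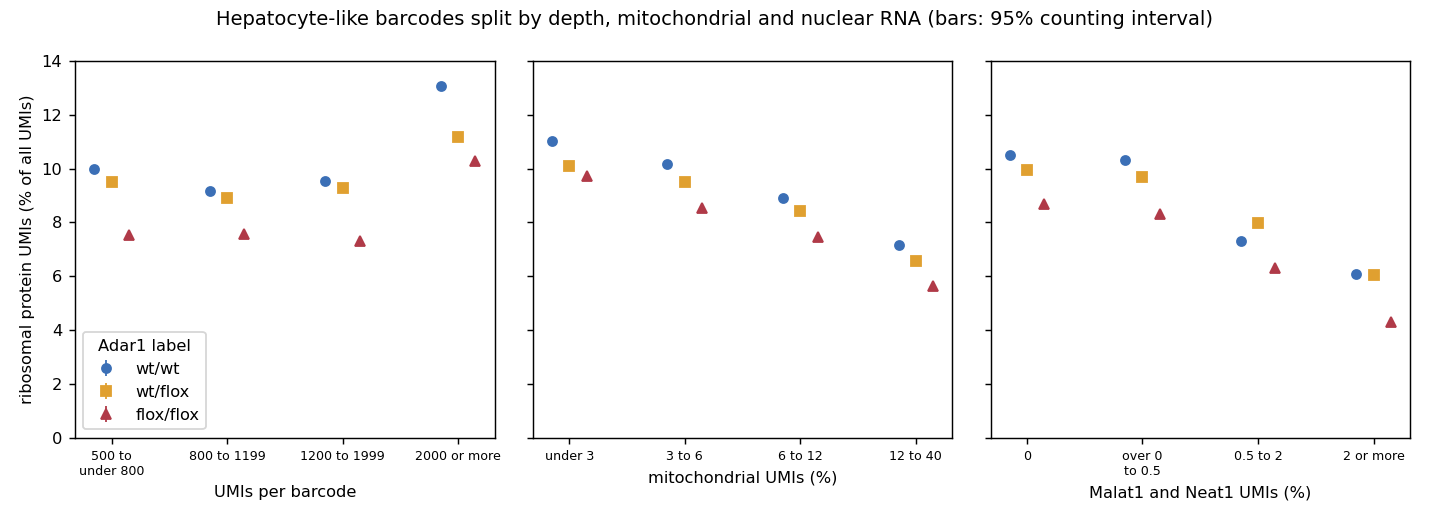
Percent of UMIs on the 86 members (y axis) in hepatocyte-like barcodes split by UMIs per barcode, by percent of mitochondrial UMIs and by percent of Malat1 and Neat1 UMIs (x axes), with 95% counting intervals that are mostly hidden by the points. Flox/flox is the lowest library in all 12 strata, for example 9.71% against 11 and 10.1% at under 3% mitochondrial UMIs.

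The 6 hepatocyte-like clusters gave the same order. Cluster 0, which was mostly wt/wt, had member shares of 11, 10.6 and 8.99% across wt/wt, wt/flox and flox/flox. Cluster 3, mostly wt/flox, had 10.7, 10.1 and 9.23%. Cluster 8, mostly flox/flox and led by interferon-stimulated genes such as Isg15 and Ifit1, had 11.2, 10.9 and 9.82%. The lowest shares were in cluster 6, whose leading genes included Neat1 and antisense or predicted transcripts, with 6.20, 6.15 and 4.52%. Cluster 4, with mitochondrial genes among its leading genes, had 8.19, 7.76 and 6.39%, and cluster 1, led by Slc1a2 and Glul, had 8.21, 7.92 and 6.33%. In all 6 flox/flox was the lowest library, although the clusters differed among themselves by more than the libraries did within a cluster.

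Gene by gene, nearly all members were lower in flox/flox. A member counted as measured where its hepatocyte-like UMIs summed to 20 or more across libraries, which 83 of 86 reached. Rpl10l and Rpl39l had 0 UMIs, which allows up to 3 per library, and Rpl3l had 1. Of the 83, 80 were lower in flox/flox than in wt/wt and 82 lower than in wt/flox, with the interval below 0 for 79 and 80 of them. The median log2 ratio was -0.32 against wt/wt and -0.26 against wt/flox, the second being -0.16 at no more than 10% mitochondrial UMIs and -0.11 at 2000 UMIs or more. Over all 11232 measured features the medians were 0.085 and 0.037, and over the 531 features that are no member but had at least 5000 UMIs they were -0.053 and -0.13. Lower in flox/flox were 42.6% and 46.6% of all measured features, and 56.5% and 62.3% of those 531. The interval lay below 0 for 1706 and 2008 of the 11232. Between wt/flox and wt/wt the members' median was -0.063, with 60 of 83 lower, against 0.038 over all features, of which 45.5% were lower. These 3 comparisons share libraries, so they are not separate evidence.

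Most of the differences were small, and few members passed a fixed fold. Past 1.5-fold and lower in flox/flox than in wt/wt were 4 of 83 members, where the background was 7.05% of the 11232 measured features, and 1 member was past 1.5-fold and higher, where it was 13.8%. Against wt/flox 2 members were lower (background 9.55%) and 0 higher (13.2%). Between wt/flox and wt/wt 1 member was lower (7.04%) and 0 higher (9.8%). The 25th and 75th percentiles of the members' log2 ratios for flox/flox over wt/wt were -0.41 and -0.23, where those of all features were -0.20 and 0.38. In order of level, wt/wt stood above wt/flox and wt/flox above flox/flox for 60 members, and wt/flox stood above wt/wt and flox/flox lowest for 20. The remaining 3 were Rpl22l1, highest in flox/flox, and 2 with flox/flox in the middle, Rpl39 and Rps15a.

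**Figure D3:**
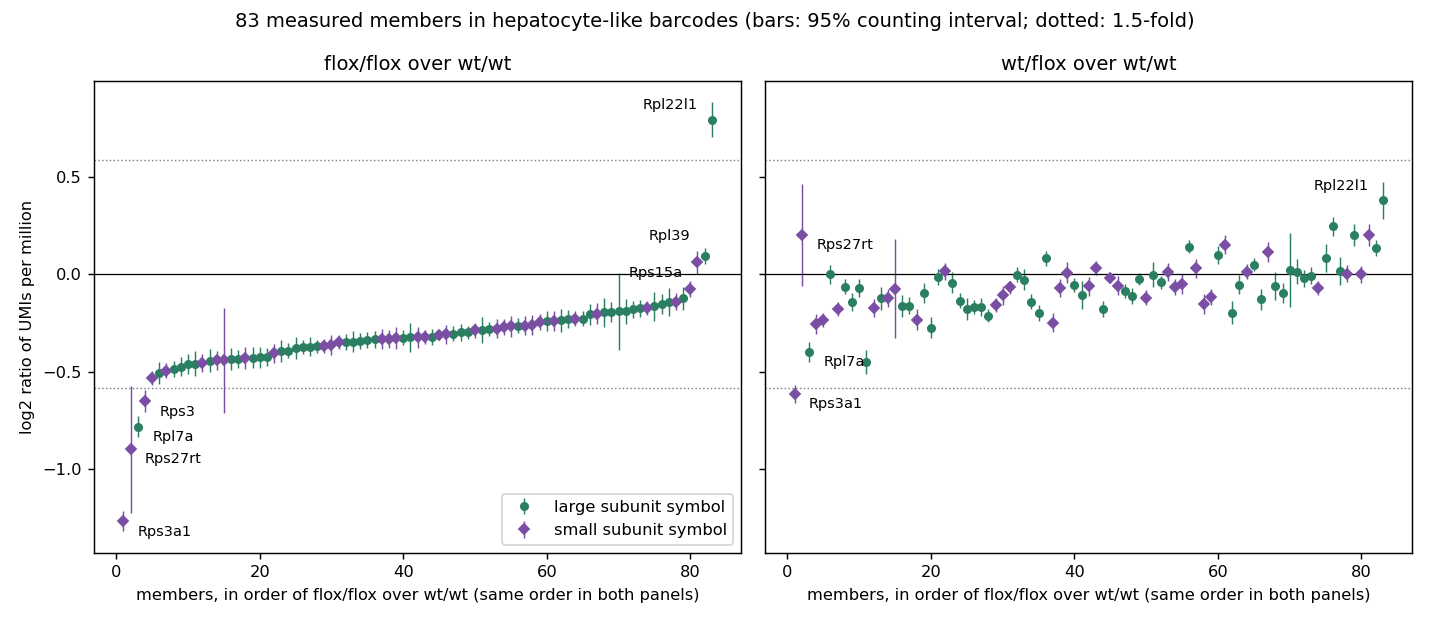
Log2 ratio of CPM for the 83 measured members in hepatocyte-like barcodes (y axis), in order of flox/flox over wt/wt (x axis, rank, the same in both panels), with 95% counting intervals, coloured by subunit symbol. In the left panel 80 members lie below 0, with Rps3a1 lowest at -1.27 and Rpl22l1 highest at 0.79, and in the right panel (wt/flox over wt/wt) the same 2 members lie at -0.61 and 0.38.

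Among small subunit proteins, Rps3a1 had the lowest ratios of flox/flox and of wt/flox over wt/wt. It encodes eS1, a protein of the small subunit near the mRNA exit. It had 10916, 6520 and 4250 UMIs across wt/wt, wt/flox and flox/flox, or 1454, 951 and 605 CPM. The 3 libraries were stepwise and their intervals did not overlap. Flox/flox was 2.40-fold lower than wt/wt (log2 -1.27, -1.32 to -1.21), and wt/flox was 1.53-fold lower than wt/wt (-0.61, -0.66 to -0.57). The median member was lower by -0.32 and -0.063 in the same comparisons.

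This order was found in every group of barcodes examined. The groups come from the same 3 libraries, and the other classes also held hepatocyte markers, so they are not separate checks. The part of RNA shared across a library was not tested. In each of the 6 hepatocyte-like clusters and each of 8 other classes Rps3a1 was highest in wt/wt and lowest in flox/flox, with wt/flox between them. For flox/flox over wt/wt the interval lay below 0 in all 14. In B-like barcodes it stood at 2524, 1455 and 1054 CPM, and in T or NK-like barcodes at 2403, 1470 and 1167. Both wt/wt values were above the hepatocyte-like level of 1454. In stellate or fibroblast-like barcodes it stood at 1438, 785 and 451 CPM, and in Kupffer-like barcodes at 1583, 1097 and 886. The gene lies at chr3:86137940-86142702 (GRCm38, minus strand), 3.57 Mb from Adar on the same chromosome. The other members on chromosome 3 were Rps27, 0.459 Mb from Adar with log2 -0.29 for flox/flox over wt/wt, Rpl34, 41.0 Mb away with -0.24, and Rpl22l1, 60.9 Mb away with 0.79. Whether position bears on these values was not tested.

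**Figure D4:**
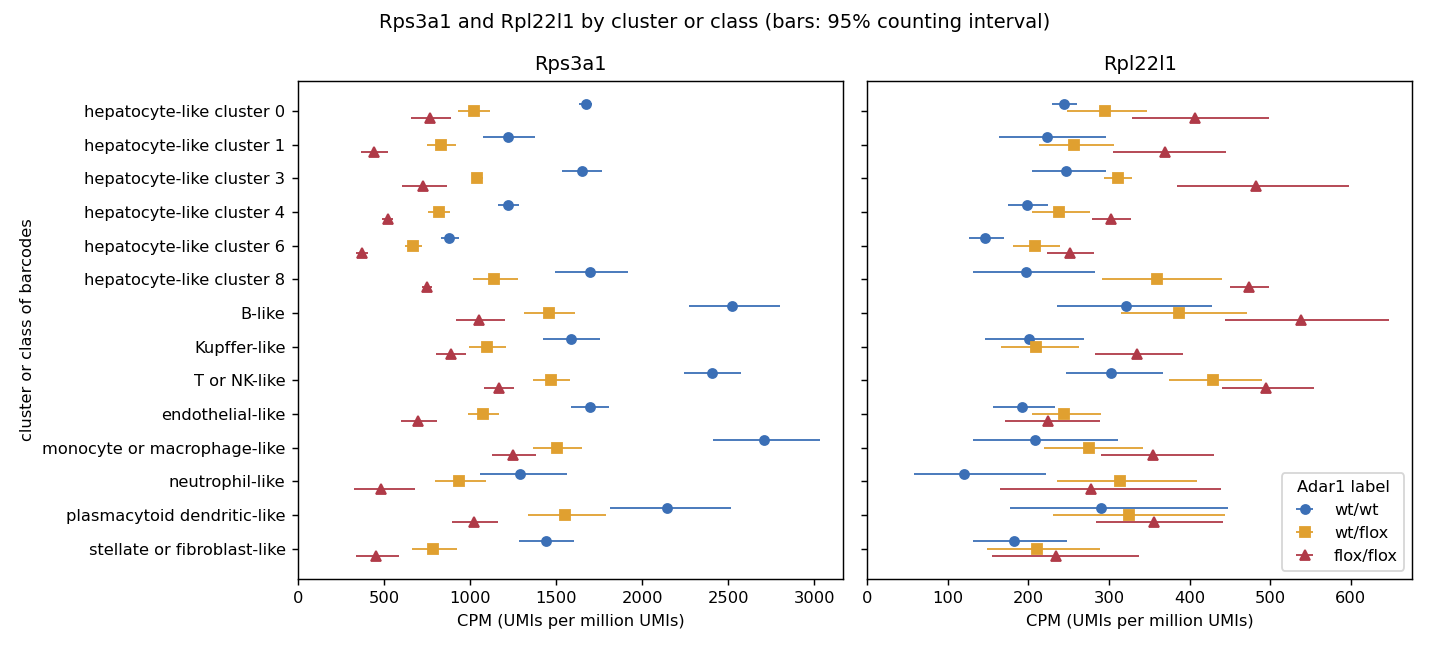
CPM of Rps3a1 (left) and Rpl22l1 (right) on linear x axes, in the 6 hepatocyte-like clusters and 8 other classes (y axis), with 1 point per library and 95% counting intervals. Rps3a1 runs from high in wt/wt to low in flox/flox in all 14 rows, for example 2524, 1455 and 1054 in B-like barcodes, while Rpl22l1 is higher in flox/flox than in wt/wt in all 14, with overlapping intervals in several.

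Rps3, a small subunit protein at the mRNA entry that also has roles in DNA repair, had 7055, 5401 and 4209 UMIs (940, 788 and 599 CPM across wt/wt, wt/flox and flox/flox). Flox/flox was 1.57-fold lower than wt/wt (log2 -0.65, -0.71 to -0.59), and the 3 intervals did not overlap. Rps4x, an X-linked small subunit protein, stood at 1021, 859 and 811 CPM, so that most of its difference lay between wt/wt and wt/flox (-0.25).

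For flox/flox over wt/wt, Rps15a and Rps12 departed least among small subunit members. Rps15a stood at 666, 766 and 694 CPM, highest in wt/flox, with log2 0.061 for flox/flox over wt/wt, and Rps12 at 1311, 1311 and 1245 with -0.074. The sign of Rps12 turned to 0.022 in barcodes with at most 10% mitochondrial UMIs, and that of Rps15a to -0.024 when libraries were scaled by the median ratio of all features. Rps29, a zinc-binding small subunit protein, had more UMIs than any other member: 25704, 23174 and 19391. In CPM this was 3424, 3379 and 2759, so wt/wt and wt/flox lay close together and flox/flox below both. Levels of different genes are compared here per 3′ tag, which is not divided by transcript length.

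Among large subunit proteins, Rpl7a had the lowest ratio of flox/flox over wt/wt. Its gene hosts small nucleolar RNAs in its introns. It had 7254, 5031 and 3955 UMIs, or 966, 734 and 563 CPM across wt/wt, wt/flox and flox/flox. Flox/flox was 1.72-fold lower than wt/wt (log2 -0.78, -0.84 to -0.72) and wt/flox stood between. In the 8 other classes flox/flox was below wt/wt in 8, each with the interval below 0. Pooled over those classes, Rpl7a was 1019, 782 and 773 CPM, with a log2 ratio of flox/flox over wt/flox of -0.017 (-0.11 to 0.077). Taken class by class, the interval of that ratio lay below 0 in 3 classes and above 0 in 1. The mix of classes also differed between libraries, so the pooled value does not show a lack of difference. These classes held hepatocyte markers too, and the part of hepatocyte RNA was not tested.

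Rplp0, the base of the acidic stalk that recruits translation factors, stood at 867, 866 and 611 CPM, with the wt/wt and wt/flox intervals overlapping and flox/flox lower by -0.51 and -0.50. Rpl24, which bridges the subunits, stood at 1593, 1525 and 1138 CPM. Rpl35a, one of the genes mutated in Diamond-Blackfan anaemia, stood at 1345, 1333 and 1003. These 3 large subunit genes thus separated flox/flox from both other libraries. Rpl3 and Rpl10a differed more between wt/wt and wt/flox. Rpl3, which helps shape the peptidyl transferase centre, stood at 670, 491 and 488 CPM, and wt/flox and flox/flox did not differ beyond counting error (log2 -0.0076, -0.077 to 0.061). In barcodes with at most 10% mitochondrial UMIs that Rpl3 ratio was 0.11, and in those with 2000 UMIs or more it was 0.51, with -1.13 for wt/flox over wt/wt. Rpl10a, the protein of the mobile stalk where spent tRNA leaves, stood at 913, 756 and 680 CPM.

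Of the 5 members with most UMIs, 4 encode large subunit proteins. Rplp1, an acidic stalk protein, had 16906, 15180 and 12881 UMIs. Rpl38, a protein linked to the selective translation of Hox mRNAs in embryos, had 17517, 13821 and 12692. Rpl23, which can bind the p53 regulator Mdm2 when free, had 15994, 14200 and 12325. All 3 were ordered wt/wt, wt/flox, flox/flox. Rpl41, the fourth and among the smallest proteins known in eukaryotes, had 13797, 13900 and 10767 UMIs, or 1838, 2027 and 1532 CPM, highest in wt/flox. Rpl21 likewise was highest in wt/flox, at 655, 754 and 601 CPM. In barcodes with 2000 UMIs or more, wt/flox stood below wt/wt for both (-0.098 for Rpl41 and -0.039 for Rpl21). Rpl39, a tunnel protein, stood at 1309, 1439 and 1396 CPM, and its flox/flox level exceeded wt/wt by a log2 ratio of 0.093 (0.052 to 0.13).

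Large and small subunit members differed between libraries by like amounts. The median log2 ratio for flox/flox over wt/wt was -0.32 over 49 large subunit members and -0.32 over 34 small subunit members. The summed large over small subunit UMIs were 1.29 (1.28 to 1.29), 1.30 (1.30 to 1.31) and 1.31 (1.30 to 1.32) across the libraries in that order. With Rps3a1 left out, an alternative chosen after seeing the data, the ratios were 1.333, 1.335 and 1.334, so no step beyond the intervals was left without that gene.

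Paralogues followed separate courses. Rpl22l1 is a near copy of Rpl22, an RNA-binding large subunit protein known to hold down Rpl22l1 mRNA. It was the single measured member above 1.5-fold in flox/flox, with 1648, 1957 and 2670 UMIs, or 220, 285 and 380 CPM. Flox/flox exceeded wt/wt by 1.73-fold (log2 0.79, 0.70 to 0.88) and wt/flox by a log2 ratio of 0.41, and the 3 intervals did not overlap. Rpl22 stood at 795, 711 and 589 CPM in the same libraries. Rpl22l1 UMIs were thus 21.6, 28.6 and 39.2% of the pair. In each of the 6 hepatocyte-like clusters it ran from low in wt/wt through wt/flox to high in flox/flox, and in the 8 other classes flox/flox was above wt/wt in 8, stepwise in 6. Pooled over the other classes it stood at 226, 303 and 382 CPM, close to the hepatocyte-like levels. Those classes come from the same libraries and also held hepatocyte markers, so they are not separate checks.

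The Rps27 family showed 3 patterns. Rps27 itself, a zinc-finger protein of the small subunit, stood at 1590, 1464 and 1303 CPM. Rps27l, whose gene is known as a p53 target, stood at 981, 1090 and 831 and made up 38.1, 42.7 and 38.9% of its pair with Rps27. Rps27rt had 238, 250 and 120 UMIs (31.7, 36.5 and 17.1 CPM), 1.86-fold lower in flox/flox than in wt/wt (log2 -0.89, -1.22 to -0.57), while wt/flox and wt/wt did not differ beyond counting error (0.20, -0.060 to 0.46). In their RefSeq entries, Rps27 and Rps27rt share an unbroken run of 38 of the first 50 transcribed bases, counted from base 2 of Rps27 and base 1 of Rps27rt. These bases are at the 5′ end, and the 3′ ends, which the tags come from, were not compared. If the copies are alike there too, reads may be assigned to either gene or dropped, so the Rps27rt count is uncertain. In barcodes with at least 2000 UMIs the Rps27rt ratio for flox/flox over wt/wt was 0.18.

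Of the remaining paralogues, Rpl36al had more UMIs than its partner Rpl36a and was highest in wt/flox, at 898, 1064 and 809 CPM, which was 61.2, 64.9 and 61.8% of the pair. Rpl7l1, a nucleolar relative of Rpl7, stood at 63.8, 64.7 and 55.9 CPM and its intervals overlapped. Rps19bp1 stood at 37.4, 35.6 and 27.6 CPM.

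Members with CTTTC near the annotated start did not stand apart from those without it. CTTTC within 50 bases of the start is not itself the TOP motif, and members were not split by TOP motif. Among measured members with a promoter entry, the median log2 ratio for flox/flox over wt/wt was -0.33 in the 33 with CTTTC near the start and -0.32 in the 30 without it. For CCGGAAG the medians were -0.30 in 25 with and -0.33 in 38 without. These are descriptions, and annotated starts can differ from those used.

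Genes that work with the members were read from lists. Among other ribosomal components, Fau, the gene of eS30, was lower in flox/flox (log2 -0.44 against wt/wt) and so was Rack1, a scaffold on the small subunit (-0.35). Of 20 translation factors and other TOP mRNAs, 0 passed 1.5-fold in any of the 3 comparisons, where 7.04 to 13.8% of all features passed it in 1 direction, and the median for flox/flox over wt/wt was -0.12. Examples are Eef1d at -0.55, Eif3h at -0.53 and Nap1l1 at 0.50.

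Ribosome assembly genes were not lower as a list. Of 45 biogenesis genes, all measured, 7 were past 1.5-fold and higher in flox/flox than in wt/wt and 1 was lower, with a median of 0.13, where 13.8 and 7.05% of all features were past it, so the share of higher ones was near the background. The higher ones included Rrp12 (log2 1.10), Nmd3 (1.03), which exports the large subunit, Polr1a (0.76), the largest subunit of RNA polymerase I, and Rrs1 (0.74). They rest on few UMIs, for example 26, 39 and 52 for Rrp12. The lower one was Tcof1 (-0.88), with 55, 54 and 28 UMIs. Of 78 mitochondrial ribosomal protein genes, 0 were higher past 1.5-fold and 1 was lower, Mrpl34 (-0.66), with a median of -0.13.

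Regulators were mixed. Of 13 measured p53 targets among 18, 1 was past 1.5-fold and higher in flox/flox than in wt/wt and 2 were lower, beside 13.8 and 7.05% of all features, with a median of 0.095. Against wt/flox, 5 were higher and 1 lower in flox/flox (13.2 and 9.55% of all features), with a median of 0.17. For wt/flox over wt/wt, 0 were higher and 3 lower (9.8 and 7.04%), with a median of -0.076. These last comparisons share the wt/flox library. A list headed mTOR and LARP1 regulators had 23 of 24 genes measured. Of these, 3 were higher and 1 lower in flox/flox than in wt/wt, shares near or below the 13.8 and 7.05% of all features, with a median of -0.044. The higher ones were Eif2ak2 (1.12), which encodes the kinase PKR and is interferon-stimulated, Eif2ak3 (0.98), which encodes PERK, and Sesn2 (0.66). PKR and PERK are kinases of the translation factor eIF2, so the list was broader than its heading. Ddit4, an inhibitor of mTORC1, had 699, 57 and 213 UMIs, so that wt/wt was high and wt/flox low.

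Other liver cells differed in both their member share and its order across libraries. In 8 other classes with at least 50 barcodes in each library, named from marker genes, the share in wt/wt ran from 8.52% in stellate or fibroblast-like to 17.5% in monocyte or macrophage-like barcodes. These classes held 41.5 to 82.5% of the hepatocyte-marker level of hepatocyte-like barcodes, so their values include hepatocyte RNA, whose part was not tested. Lymphoid and plasmacytoid dendritic classes were high. T or NK-like barcodes gave 16.5, 15.8 and 16.4% to the members across wt/wt, wt/flox and flox/flox, B-like barcodes 15.1, 13.6 and 14.2%, and plasmacytoid dendritic-like barcodes 15.1, 13.3 and 12.9%. The B-like cluster was led by Jchain and immunoglobulin genes, so it includes antibody-secreting cells. The monocyte or macrophage-like cluster also held the conventional dendritic markers Xcr1, Clec9a, Flt3 and Cd209a, so its values may include dendritic cells.

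Flox/flox was lowest of the 3 libraries in 4 of the 8 classes. These were endothelial-like (9.76, 8.32 and 7.33%), neutrophil-like (9.10, 8.93 and 7.38%), stellate or fibroblast-like (8.52, 7.72 and 6.74%) and plasmacytoid dendritic-like barcodes. The neutrophil-like class also held the most hepatocyte RNA, 73.5 to 82.5% of the hepatocyte-like level. Among barcodes with at most 10% mitochondrial UMIs the order of flox/flox and wt/flox in the plasmacytoid dendritic-like class turned (log2 0.0069). In the other 4 classes wt/flox was lowest: T or NK-like, B-like, Kupffer-like (10.5, 9.03 and 9.57%) and monocyte or macrophage-like (17.5, 14.5 and 15.9%). In T or NK-like barcodes flox/flox and wt/wt did not differ beyond counting error (log2 -0.013, -0.028 to 0.0023), and the ratio was 0.057 in those with 3% to 8% mitochondrial UMIs. The median log2 ratio over measured members, for flox/flox over wt/wt, was -0.42 in endothelial-like, -0.32 in stellate or fibroblast-like, -0.12 in Kupffer-like and -0.019 in T or NK-like barcodes. No test of a difference between classes was possible with 1 library per genotype.

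**Figure D5:**
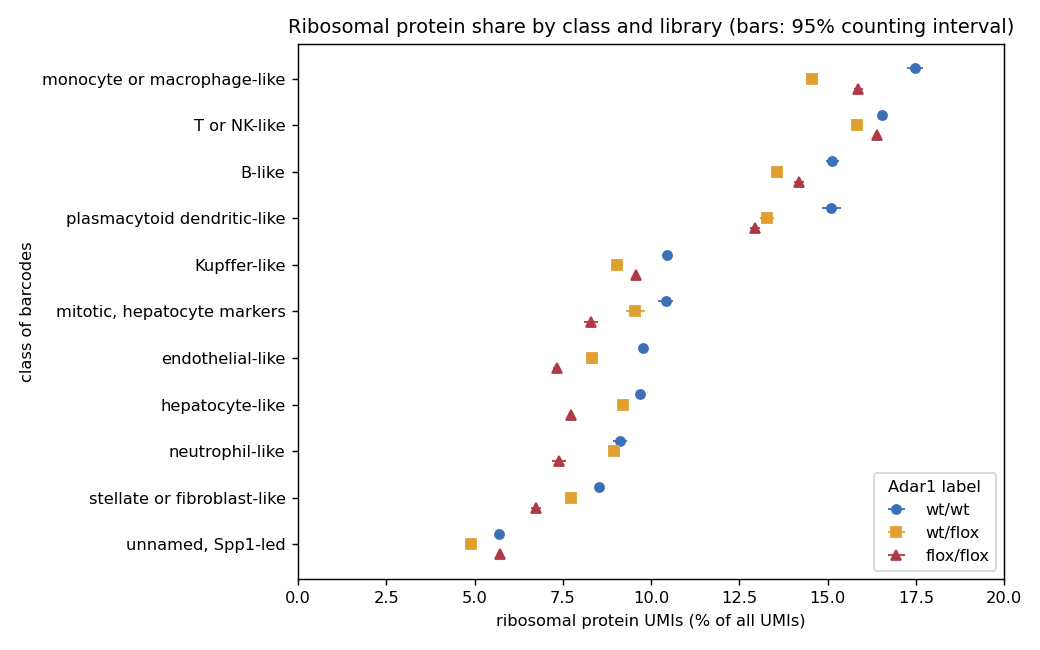
Percent of UMIs on the 86 members (x axis) by class of barcodes (y axis) and library, with 95% counting intervals, in the hepatocyte-like class, 8 other named classes, a mitotic cluster that held hepatocyte markers and an unnamed cluster led by Spp1. Flox/flox is the lowest point in hepatocyte-like (7.74%) and endothelial-like barcodes (7.33%), and wt/flox is the lowest in monocyte or macrophage-like barcodes (14.5%).

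A cluster led by Spp1 stayed unnamed and outside the hepatocyte-like class, although it held 94.2 to 107% of that class's hepatocyte-marker level. It drew 195 barcodes from wt/wt, 249 from wt/flox and 809 from flox/flox, so it made up a larger part of the flox/flox library. Its member share was low and not lowest in flox/flox: 5.68, 4.90 and 5.71%, beside 12.4, 13.6 and 12.8% mitochondrial UMIs. A mitotic cluster with hepatocyte markers at the hepatocyte-like level (93, 51 and 79 barcodes) had shares of 10.4, 9.55 and 8.29%. A second mitotic cluster (19, 41 and 37 barcodes) and an erythroid-like one (41, 288 and 7) were too small in a library to be compared.

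Within the ribosomal protein UMIs, cell classes differed in which members they favoured, in each of the 3 libraries. Rps27l and Rpl36al took more of them in hepatocyte-like barcodes than in most other classes. In T or NK-like barcodes Rps27l was 0.448, 0.521 and 0.341% of member UMIs across wt/wt, wt/flox and flox/flox, against 1.01, 1.18 and 1.07% in hepatocyte-like barcodes. Rps27l was among the 2 members lowest against hepatocyte-like barcodes in 7 of the 8 classes, all but the neutrophil-like. Rpl36al was among them in 5, with 0.466, 0.600 and 0.477% in T or NK-like barcodes against 0.928, 1.16 and 1.05%.

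Rps9 stood out on the other side, in myeloid classes. It made up 1.67, 1.6 and 1.69% of member UMIs in monocyte or macrophage-like barcodes and 1.93, 1.51 and 1.80% in neutrophil-like ones, against 0.989, 0.936 and 1.03% in hepatocyte-like barcodes. It was among the 2 highest in Kupffer-like and plasmacytoid dendritic-like barcodes too. Rpl31 was highest in plasmacytoid dendritic-like barcodes, with 0.901, 1.19 and 1.27% against 0.444, 0.494 and 0.496%. Rps15a was higher in lymphoid classes, at 1.03, 1.33 and 1.44% in T or NK-like barcodes against 0.688, 0.832 and 0.897%, and Rps19 in B-like ones, at 1.17, 1.245 and 1.19% against 0.801, 0.847 and 0.799%. Rps29 took 5.79, 5.12 and 5.12% of member UMIs in Kupffer-like barcodes against 3.54, 3.67 and 3.56%. In endothelial-like barcodes Rps12 was among the 2 highest, by a log2 ratio of at least 0.31 in each library. Hepatocyte RNA in these barcodes draws such ratios toward 0, by an amount that was not tested.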

How the data were processed

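The deposited matrix holds whole-number UMI counts per feature and barcode for all 3 libraries, written by Cell Ranger 6.1.1 per the file headers. The submitters' processing notes name Seurat and mm10. The annotation release they counted against is not given in the sources used here. Barcode suffixes gave the library, and 0 barcodes had a suffix without a sample. The members, lists and alternatives were chosen with earlier results of these data known.

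Kept barcodes had 500 UMIs and 250 genes or more and no more than 40% mitochondrial UMIs. The lowest deposited totals were 727 (wt/wt), 721 (wt/flox) and 636 UMIs (flox/flox), so the minimum of 500 UMIs removed no barcode. They were clustered with scanpy 1.11.5 (2000 variable genes, 30 components, 15 neighbours, resolution 1) with members, mitochondrial genes and pseudogene symbols left out of the variable genes. Clusters were named from marker lists. Doublets were not removed, and RNA from outside the cell was not corrected for. The raw counts were summed per class and library and divided by all UMIs. Ratios set counts under 3 to 3. Intervals are exact (Clopper-Pearson for shares, conditional binomial for ratios, Poisson for levels) at 95%. Only those for ratios were tried on simulated data. The simulated counts were Poisson, so they say nothing about spread between barcodes or animals. Coordinates came from GENCODE release M21 by gene ID (86 of 86 matched) and promoters from RefSeq (GRCm38.p6).

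Named genes were, among members with at least 100 UMIs, the 6 highest and 6 lowest in flox/flox against both other libraries, the 6 highest and 6 lowest in wt/flox over wt/wt, the 5 with most UMIs, every unusual symbol, and for each other class the 2 highest and 2 lowest in share of member UMIs. Rpl22, Rpl36a, Rpl39, Rpl34, Rps27 beside Rps27rt and the genes outside the members were named after their values were seen. Tried as alternatives were 15 planned and 4 added settings of depth, mitochondrial and nuclear RNA, denominator, class definition, threshold and membership. Some named members and list genes are not reported here.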

Additional observations from a re-analysis of the deposited data

Results flagged for a closer look

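In 4 classes the member share moved the other way between wt/flox and flox/flox than in hepatocyte-like barcodes, where flox/flox was lower by a log2 ratio of -0.25. Flox/flox was higher by 0.064 in B-like, 0.085 in Kupffer-like, 0.050 in T or NK-like and 0.13 in monocyte or macrophage-like barcodes. The B-like value turned to -0.020 without the 5% of barcodes with most UMIs. With classes from marker UMIs alone the Kupffer-like value was 0.033 and the monocyte or macrophage-like value 0.019. The counting interval excluded 0 in each, but with 1 library per genotype the difference between classes was not tested.

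UMIs also fell on 3 of the 5 pseudogene symbols left out by the rule, above the limit that a count of 0 allows. Over the kept barcodes of the 3 libraries Rpl10-ps3 had 1587 (548, 603 and 436 across wt/wt, wt/flox and flox/flox), Rpl9-ps6 had 1171 (414, 454 and 303) and Rpl36a-ps1 had 173 (61, 63 and 49). Each was lowest in flox/flox. Whether these UMIs come from the pseudogene or from its parent gene cannot be told apart in these counts.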

How the results depend on the processing

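With 1 library per genotype no setting gives a replicate check, depth per barcode is low (a median of 821 to 889 UMIs in hepatocyte-like barcodes), and counting intervals are so narrow that most settings moved the share past them. The member share stayed lower in flox/flox than in both other libraries, and in wt/flox than in wt/wt, under all settings run for it. At a minimum of 2000 UMIs no other class kept 50 barcodes in every library, so the count of classes was not run there. Of 1662 values for single members and single classes under the alternatives, 1280 stayed within the counting interval, 361 moved out of it and 21 whose interval excluded 0 changed sign. The cause was not tested for any of them.

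Log2 ratios of the member share for flox/flox over wt/wt, flox/flox over wt/flox and wt/flox over wt/wt were -0.35, -0.12 and -0.23 at a minimum of 2000 UMIs, and -0.31 and -0.24 for the first 2 at 1000. They were -0.25, -0.15 and -0.099 at no more than 10% mitochondrial UMIs and -0.26, -0.17 and -0.092 at 3% to 8%. Without the 5% deepest barcodes they were -0.35, -0.29 and -0.058, without the 10% highest in Malat1 and Neat1 -0.31, -0.23 and -0.078, and without the nuclear-transcript cluster -0.30, -0.21 and -0.090. Per UMI not mitochondrial they were -0.29, -0.20 and -0.087, and per UMI outside the 50 leading genes -0.30, -0.22 and -0.084. With classes from marker UMIs alone they were -0.30, -0.24 and -0.063, and with the Spp1-led cluster -0.36, -0.28 and -0.080. With members among the variable genes the first 2 were -0.30 and -0.23. For flox/flox over wt/wt and wt/flox over wt/wt they were -0.33 and -0.079 over canonical members and -0.31 and -0.065 without Rps3a1.

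The median member ratio for flox/flox over wt/wt was -0.24 at no more than 10% and at 3% to 8% mitochondrial UMIs, and -0.41 after scaling by the median ratio of all features. For flox/flox over wt/flox it was -0.16, -0.17 and, at 2000 UMIs, -0.11. For wt/flox over wt/wt it was -0.23 at 2000 UMIs.

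Counts of members past the fold changed as follows. The shares over all features given above are for 1.5-fold in the main setting only. Counts at other folds or in other sets of barcodes therefore have no background here and do not show an excess among members. At a ratio of 5 to 4, 42 were lower for flox/flox over wt/wt, 22 lower and 1 higher over wt/flox, and 3 lower and 1 higher for wt/flox over wt/wt. At 2-fold 1 was lower and 0 higher for flox/flox over wt/wt, 1 lower over wt/flox and 0 lower for wt/flox over wt/wt. At 2000 UMIs 7 were lower and 2 higher for flox/flox over wt/wt, 1 higher over wt/flox, and 3 lower and 2 higher for wt/flox over wt/wt. For flox/flox over wt/flox 1 was lower at no more than 10% and at 3% to 8% mitochondrial UMIs, over canonical members and without Rps3a1. Over canonical members 0 were higher for flox/flox over wt/wt, and without Rps3a1 0 were lower for wt/flox over wt/wt.

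Large over small subunit ratios across wt/wt, wt/flox and flox/flox were 1.29, 1.28 and 1.29 at 2000 UMIs, 1.28, 1.29 and 1.29 with marker-only classes and 1.333, 1.335 and 1.334 without Rps3a1. The wt/flox ratio was 1.29 at 1000 UMIs, and the flox/flox ratio was 1.30 both with the Spp1-led cluster and at 3% to 8% mitochondrial UMIs. At 3% to 8%, 2 other classes, of 5 that kept 50 barcodes, were lowest in flox/flox.

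Sign changes at 2000 UMIs, where hepatocyte-like barcodes number 94 to 237 a library, were Rps12 (0.0035) and Rps27rt (0.18) for flox/flox over wt/wt, Rpl38 (0.060), Rpl7l1 (0.11), Rps12 (0.14), Rps15a (0.010) and Rps27 (0.056) for flox/flox over wt/flox, and Rpl21 (-0.039) and Rpl41 (-0.098) for wt/flox over wt/wt. At no more than 10% mitochondrial UMIs they were Rps12 (0.022) over wt/wt and Rps12 (0.033), Rps4x (0.012), Rps9 (0.012) and the plasmacytoid dendritic-like share (0.0069) over wt/flox. At 3% to 8% they were Rps12 (0.030) over wt/wt and Rps12 (0.038), Rpl7l1 (0.088) and Rps9 (0.052) over wt/flox. Without the 5% deepest barcodes they were the B-like share (-0.020) and the plasmacytoid dendritic-like share (0.0012) over wt/flox. After scaling by all features, Rps15a was -0.024 over wt/wt. The settings on the Spp1-led cluster, the nuclear-transcript cluster, the 3% to 8% range and Rps3a1 were chosen after seeing the data.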
